A study of Mus musculus with 16 samples.

Results

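Genes of the provisional matrix and of hyaluronan biology were followed in mouse lung after crystalline silica. The list holds 9 genes, Has2, Vcan, Tnfaip6, Ptx3, Cd44, Tnc, Fn1, Thbs1 and Postn, chosen by their symbols in the annotation of the array platform. All 9 were measured among 19938 named genes, each by 1 probe set. The mice were on a C57BL/6 background, were 10 to 12 weeks old per the labels, and were given crystalline silica (CS) by the tracheal route, or the buffer PBS (phosphate-buffered saline) alone. BLT1-/- mice lack the receptor BLT1, which binds the leukocyte attractant leukotriene B4, and BLT1+/+ mice carry it. At day 2 the groups were BLT1-/- CS and BLT1+/+ CS lungs (3 lungs each) and 1 array of pooled RNA from 3 PBS mice per genotype. At day 60 the groups were BLT1-/-KRasLA1 CS and BLT1+/+KRasLA1 CS lungs (3 each) and again 1 PBS pool of 3 mice per genotype. Mice that carry the KRasLA1 allele develop lung tumors. Every day 60 mouse carried it and no day 2 mouse did, so day and allele cannot be told apart. Total RNA of whole lungs was measured, 1 array per sample, which makes 16 arrays.

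When a tissue is injured, plasma leaks out, and the first scaffold laid into the wound is a provisional matrix in which fibronectin and fibrin are joined by glycoproteins such as tenascin-C, thrombospondin-1 and periostin. Hyaluronan, a long sugar chain spun out at the cell surface by hyaluronan synthases, is woven into the same scaffold. Versican binds the chain and swells it, TSG-6 (the product of Tnfaip6) transfers heavy chains of inter-alpha-inhibitor onto it, pentraxin 3 holds such heavy chains together, and CD44 is its main cell surface receptor. Such matrix forms in injured lung and can hold leukocytes.

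Values are RMA log2 expression levels, compared for each gene between samples and never between genes. Array medians lay between 8.25 and 8.34. Ltb4r1, the gene of BLT1, lay between 7.21 and 7.56 on the 8 arrays labelled BLT1-/- and between 7.26 and 7.63 on the 8 labelled BLT1+/+. It did not separate the genotypes, and the sources used here do not say whether its probe set lies in the deleted part. The Y-linked gene Eif2s3y stood at 10.09 in the lung labelled BLT1+/+KRasLA1 CS replicate 2 and at 9.04 and 9.68 in the BLT1-/-KRasLA1 and BLT1+/+KRasLA1 PBS pools, against 4.27 to 4.74 on the other 13 arrays. Calls of the members and of the related gene lists that ended without that lung are named with their values. At day 60 this Y-linked gene was thus high in both pools but in only that CS lung, and it was high in neither day 2 pool. Sex, as read from this gene, cannot be fully told apart from treatment in the day 60 responses and the day difference. Nor can it be told apart from day in the comparison of the pools. Lung epithelial markers were present throughout, as labelled: Sftpc averaged 14.30 in day 2 CS lungs and 14.38 in day 2 PBS pools.

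The first comparison asked how silica changed these genes at day 2, as the mean over both BLT1 genotypes of CS lungs against their PBS pools. Of the 9 genes, 8 rose, by 1.31-fold to 6.94-fold, in limma's moderated test with Benjamini-Hochberg adjustment over all 19938 genes (adjusted p under 0.05, two-sided). In the same comparison 12.4% of all genes changed, 8.03% being higher and 4.37% lower. Each of the 8 was above its own genotype's pool in 6 of 6 lungs, and all 6 CS lungs lay above both pools for the same 8 genes, which held for 12.1% of all genes. Postn did not pass the test. The median response of the members was 0.56 on the log2 scale, beside -0.02 over all genes. In whole lung, fewer cells of a type and less RNA per cell cannot be told apart.

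**Figure D1:**
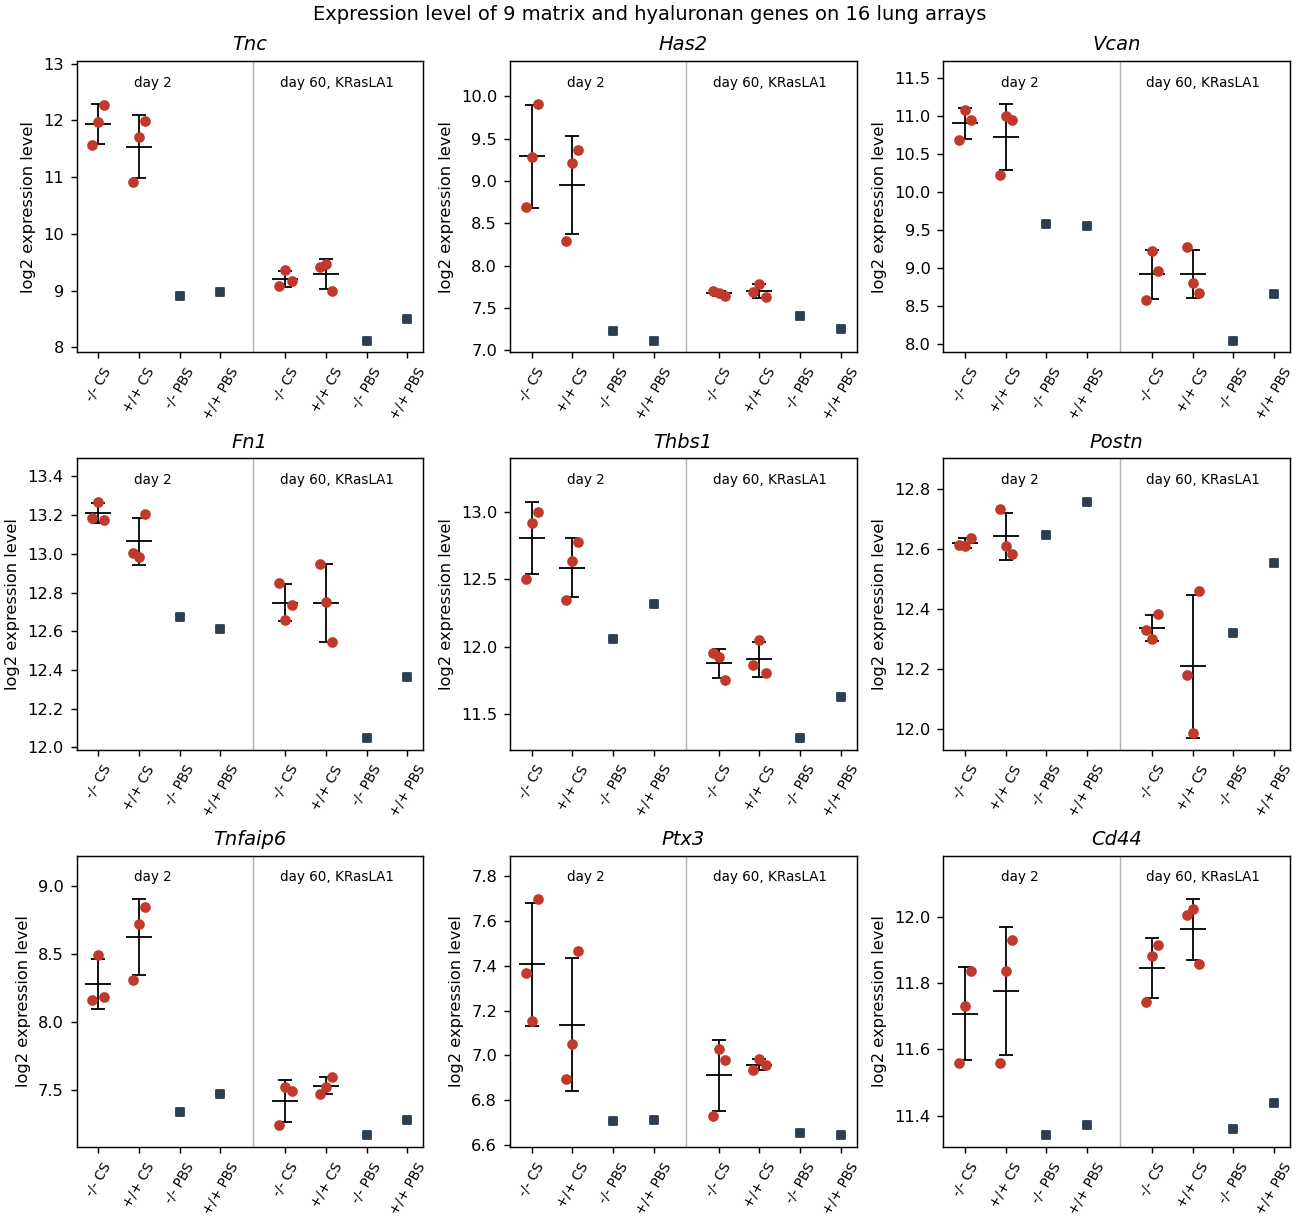
Log2 expression level (vertical axis) of each gene on the 16 arrays, by BLT1 genotype (-/- or +/+), treatment and day. Red points are single CS lungs with the group mean and SD (n = 3), and dark squares are PBS pools of 3 mice with no replicate. At day 2 all CS points of 8 genes lie above both pools, and Postn is the exception.

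Hyaluronan synthesis was represented by Has2, the hyaluronan synthase of injured and developing tissue (probe set 10428707, chromosome 15). It stood at 8.69, 9.28 and 9.91 in BLT1-/- CS lungs and at 8.29, 9.21 and 9.36 in BLT1+/+ CS lungs, against 7.23 in the BLT1-/- PBS pool and 7.11 in the BLT1+/+ PBS pool. Every CS lung was above both pools, and the lungs of the genotypes overlapped. The mean response was 1.95 ± 0.27 (log2 fold change ± SE; adjusted p = 0.000813), or 3.87-fold, and 28 genes rose by more.

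Among partners of the chain, Vcan, which encodes the hyaluronan-binding proteoglycan versican (probe set 10410931, chromosome 13), had levels of 10.68, 11.08 and 10.95 in BLT1-/- CS lungs and of 10.23, 11.00 and 10.95 in BLT1+/+ CS lungs, against 9.58 and 9.55 in the BLT1-/- and BLT1+/+ PBS pools. The 6 CS lungs were separate from the pools, with BLT1+/+ replicate 1 nearest to them, and the response was 1.25 ± 0.22 (adjusted p = 0.00266). Tnfaip6 (probe set 10472050, chromosome 2) stood at 8.16, 8.49 and 8.18 in BLT1-/- CS lungs and at 8.31, 8.72 and 8.85 in BLT1+/+ CS lungs, against 7.34 and 7.47 in the pools of these genotypes. Again no CS lung reached down to a pool, and the gene rose by 1.05 ± 0.14 (adjusted p = 0.000526), or 2.07-fold. Ptx3 (probe set 10492448, chromosome 3) had 7.37, 7.15 and 7.70 in BLT1-/- CS lungs and 6.89, 7.05 and 7.47 in BLT1+/+ CS lungs, against 6.71 in each pool. Its lowest CS lung was 0.18 above its pool, and its response of 0.56 ± 0.15 had the highest adjusted p of the 8, 0.0299.

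Cd44 (probe set 10485405, chromosome 2) was at 11.56, 11.73 and 11.84 in BLT1-/- CS lungs and at 11.56, 11.84 and 11.93 in BLT1+/+ CS lungs, against 11.34 and 11.37 in the BLT1-/- and BLT1+/+ PBS pools. The receptor rose by 0.39 ± 0.10 (adjusted p = 0.0197), or 1.31-fold, the smallest change among the 8 genes.

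The matrix glycoproteins differed more widely among themselves. Tnc, which encodes tenascin-C, a large glycoprotein of healing wounds (probe set 10513739, chromosome 4), stood at 11.57, 11.98 and 12.27 in BLT1-/- CS lungs and at 10.91, 11.71 and 11.99 in BLT1+/+ CS lungs. The pools were at 8.90 for BLT1-/- and 8.98 for BLT1+/+. The lowest CS lung was thus 1.93 above the higher pool, and the response of 2.80 ± 0.23 (adjusted p = 2.81e-05) was exceeded by only 12 of the 19938 genes. Fn1, the gene of fibronectin (probe set 10355403, chromosome 1), had 13.19, 13.27 and 13.17 in BLT1-/- CS lungs and 13.01, 12.98 and 13.21 in BLT1+/+ CS lungs, against 12.68 and 12.61 in the BLT1-/- and BLT1+/+ PBS pools. Its CS lungs were tightly grouped above the pools, and it rose by 0.49 ± 0.09 (adjusted p = 0.00375).

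Thbs1, whose product thrombospondin-1 can activate latent TGF-beta (probe set 10474700, chromosome 2), was at 12.50, 12.92 and 13.00 in BLT1-/- CS lungs and at 12.35, 12.63 and 12.78 in BLT1+/+ CS lungs, against 12.05 in the BLT1-/- PBS pool and 12.31 in the BLT1+/+ PBS pool. The lowest lung was only 0.03 above its pool. The response was 0.51 ± 0.13 (adjusted p = 0.0201). It was 0.27 in an additive fit that left out the pool of BLT1-/- mice, and 0.75 when the BLT1+/+ pool was left out. These equal the separate responses of BLT1+/+ and BLT1-/- lungs to their own pools. Pool and genotype therefore cannot be told apart in this difference. Postn, the gene of periostin (probe set 10492021, chromosome 3), had 12.61, 12.61 and 12.64 in BLT1-/- CS lungs and 12.73, 12.61 and 12.58 in BLT1+/+ CS lungs, against 12.65 and 12.76 in the BLT1-/- and BLT1+/+ PBS pools. CS lungs and pools overlapped, although all 6 CS lungs lay below the pool of their own genotype, with differences from -0.18 to -0.009. The mean difference of -0.07 had a 95% interval of -0.27 to 0.12 (adjusted p = 0.703).

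The lungs of a group did not respond alike. The lung labelled replicate 1 was the lowest of its CS group in both genotypes for 6 of the 9 genes (Tnc, Has2, Vcan, Thbs1, Tnfaip6 and Cd44). The share of all genes with that order was not counted, and same-numbered day 2 lungs deviated together over all genes. For Has2 the difference from the own pool ran from 1.18 to 2.68 over the 6 lungs, and for Tnc from 1.93 to 3.37. Leaving out any 1 of the 6 CS lungs kept all 8 calls, with a highest adjusted p of 0.0458, for Ptx3. The calls rest on both pools, however. In additive fits that leave out the BLT1-/- pool, 1 of the 9 genes stayed called, Tnc at 2.55 (adjusted p = 0.0178), where 0.481% of all genes were called. Without the BLT1+/+ pool 3 stayed called, Tnc, Vcan and Fn1, where 2.14% of all genes were called. With 1 pool left out, here and below, the additive fit returns the response of the genotype whose pool remains. The direction of all 8 in these fits was thus already given by the lungs against their own pool. A lost call cannot be assigned to the pool rather than to the genotype.

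**Figure D2:**
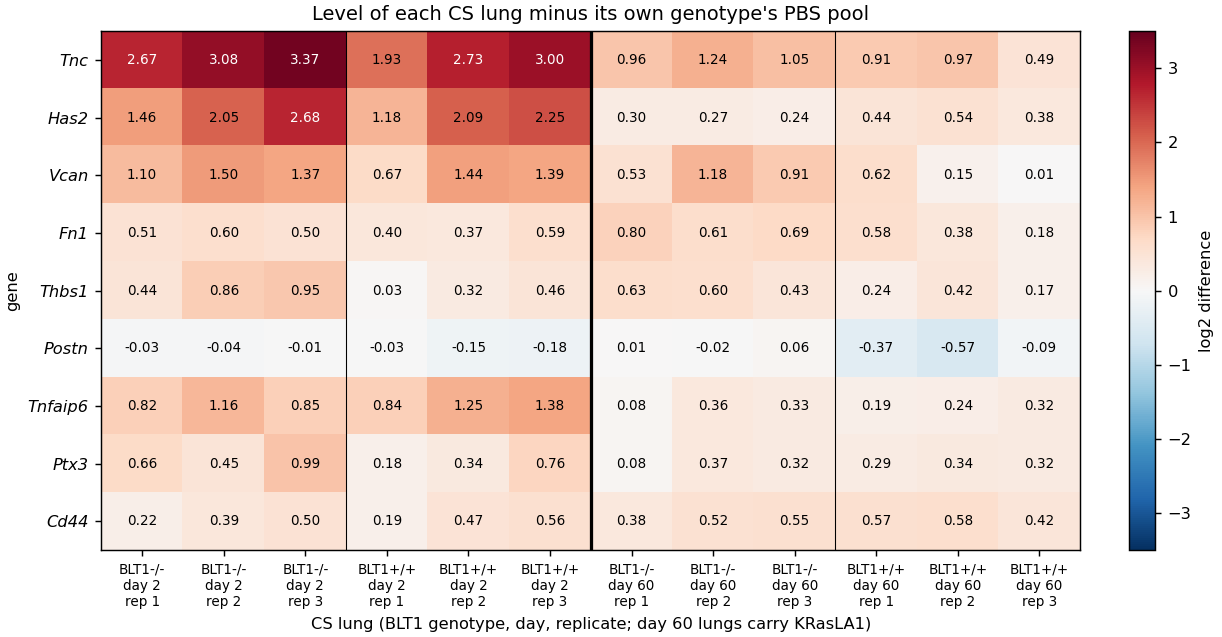
Log2 level of each CS lung minus the PBS pool of its own BLT1 genotype and day, for 9 genes (vertical axis) in 12 lungs (horizontal axis). Red is above and blue below the pool. Tnc, Has2, Vcan and Tnfaip6 are most strongly red at day 2, and at day 60 the differences of Tnc lie between 0.49 and 1.24.

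Promoter sequence was looked at for the members with an entry in the RefSeq promoter table (build GRCm38.p6, from 250 bases before to 50 bases after a transcript's start): 6 of the 9 genes, with 8 windows. Has2, Fn1 and Thbs1 had no entry. Both strands were searched for AP-1 (TGANTCA), TEAD (GGAATG), the TATA box (TATAAA) and STAT (TTC and GAA with 3 bases between). NF-kB was searched by its consensus on the gene's strand only, and overlapping matches were kept. Tnfaip6 and Ptx3 are shown as secreted hyaluronan partners that rose at day 2, Tnc as the member with the largest rise and Postn as the gene that did not pass the test. Each is written 5′ to 3′ on the gene's strand, with matches in capitals.
Tnfaip6 (chr2:52037863-52038162, plus strand): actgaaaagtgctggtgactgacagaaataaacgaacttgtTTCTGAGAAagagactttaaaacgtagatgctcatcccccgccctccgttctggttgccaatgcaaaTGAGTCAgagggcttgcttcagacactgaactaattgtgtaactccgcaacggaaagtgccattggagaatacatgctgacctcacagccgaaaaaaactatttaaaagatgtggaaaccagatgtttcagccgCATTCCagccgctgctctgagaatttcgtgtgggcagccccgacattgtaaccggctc
Ptx3 (chr3:66219637-66219936, plus strand): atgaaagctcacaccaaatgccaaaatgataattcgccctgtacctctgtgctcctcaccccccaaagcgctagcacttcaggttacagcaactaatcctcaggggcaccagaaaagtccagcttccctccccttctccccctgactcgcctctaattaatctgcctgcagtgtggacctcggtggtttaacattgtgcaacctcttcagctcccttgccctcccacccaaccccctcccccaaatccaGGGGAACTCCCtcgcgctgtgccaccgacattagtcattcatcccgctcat
Tnc (chr4:64046887-64047186, minus strand): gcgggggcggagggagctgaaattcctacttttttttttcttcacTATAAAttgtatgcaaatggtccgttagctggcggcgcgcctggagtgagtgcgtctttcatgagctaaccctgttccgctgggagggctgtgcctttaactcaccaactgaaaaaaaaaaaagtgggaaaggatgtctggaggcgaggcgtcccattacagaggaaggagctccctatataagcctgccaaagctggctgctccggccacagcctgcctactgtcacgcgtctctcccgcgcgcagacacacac
Postn (chr3:54360857-54361156, plus strand): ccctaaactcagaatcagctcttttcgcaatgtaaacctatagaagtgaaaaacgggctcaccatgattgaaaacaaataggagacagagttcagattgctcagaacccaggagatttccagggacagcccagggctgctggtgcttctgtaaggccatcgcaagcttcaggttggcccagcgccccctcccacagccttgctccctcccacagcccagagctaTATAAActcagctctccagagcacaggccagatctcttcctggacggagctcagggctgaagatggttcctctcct
The Tnfaip6 window holds an AP-1 match at position -142 from the start site, a STAT match at -209 and a TEAD match at -8 that does not overlap them. The Ptx3 window holds 2 overlapping NF-kB matches at the start site. The Tnc window holds TATAAA at -205, which its other, upstream window holds at -126, and the Postn window holds TATAAA at -26. The windows of Vcan and Cd44 and the other Postn window hold none of these letters on the strands searched. Of 32851 promoter windows in the table, 7.81% hold the AP-1 motif, 14.7% the TEAD, 8.3% the STAT and 13.6% the TATAAA motif. The NF-kB motif is held by 5.89% on the gene's strand. A match describes the letters only, and binding was not measured.

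At day 60, in mice with KRasLA1, 3 of the 9 members rose after silica, Tnc, Fn1 and Cd44, in a comparison in which 4.02% of all genes changed, 3.35% being higher and 0.677% lower. All 6 CS lungs were above both pools for 6 of the 9 genes (9.66% of all genes). The median response of the members was 0.42, beside -0.03 over all genes.

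Fn1 had 12.85, 12.66 and 12.74 in BLT1-/-KRasLA1 CS lungs and 12.95, 12.75 and 12.54 in BLT1+/+KRasLA1 CS lungs, against 12.05 and 12.36 in the PBS pools of these genotypes. The groups of treatment did not overlap, and fibronectin rose by 0.54 ± 0.09 (adjusted p = 0.00411), close to its day 2 response. Cd44 stood at 11.74, 11.88 and 11.91 in BLT1-/-KRasLA1 CS lungs and at 12.01, 12.02 and 11.86 in BLT1+/+KRasLA1 CS lungs, against 11.36 and 11.44 in the pools. It rose by 0.51 ± 0.10 (adjusted p = 0.00908), and its day 60 CS groups were the highest of all 8 groups by mean level, although their ranges overlapped those of the day 2 CS groups next in order.

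Tnc stood at 9.08, 9.36 and 9.17 in BLT1-/-KRasLA1 CS lungs and at 9.42, 9.47 and 8.99 in BLT1+/+KRasLA1 CS lungs, against 8.12 and 8.50 in the pools. Its response of 0.94 ± 0.23 (adjusted p = 0.0399), or 1.91-fold, lost the call without any 1 of 4 CS lungs, among them the BLT1+/+KRasLA1 lung with high Eif2s3y, without which it was 0.89 (adjusted p = 0.0764). The other 3 were BLT1-/-KRasLA1 replicates 2 (0.90, adjusted p = 0.0824) and 3 (0.94, adjusted p = 0.0713) and BLT1+/+KRasLA1 replicate 1 (0.91, adjusted p = 0.0810). Leaving out the BLT1-/-KRasLA1 pool left 0 of the 9 genes called, where 0.291% of all genes were called, and Fn1 was then at 0.38 (adjusted p = 0.332), Cd44 at 0.52 (adjusted p = 0.0811) and Tnc at 0.79 (adjusted p = 0.134). Leaving out the BLT1+/+KRasLA1 pool left 1, Tnc at 1.08 (adjusted p = 0.0437), where 0.858% of all genes were called.

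The other members did not pass the test at day 60. Vcan had 8.57, 9.22 and 8.95 in BLT1-/-KRasLA1 CS lungs and 9.28, 8.80 and 8.67 in BLT1+/+KRasLA1 CS lungs, against 8.04 and 8.66 in the PBS pools, so that 1 CS lung was below the higher pool (0.57, adjusted p = 0.219). Thbs1 had 11.95, 11.93 and 11.76 in BLT1-/-KRasLA1 CS lungs and 11.87, 12.05 and 11.80 in BLT1+/+KRasLA1 CS lungs, against 11.32 and 11.63 in the pools, which did not overlap (0.42, adjusted p = 0.106). Has2 lay between 7.63 and 7.79 in the 6 CS lungs, against 7.40 and 7.25 in the BLT1-/-KRasLA1 and BLT1+/+KRasLA1 pools (0.36, adjusted p = 0.662). The CS lungs of both Thbs1 and Has2 were above the pools, yet by amounts that the fit did not call. Tnfaip6 lay between 7.24 and 7.60 in CS lungs, against 7.16 and 7.28 in the pools (0.25, adjusted p = 0.468), and Ptx3 between 6.73 and 7.03, against 6.65 and 6.64 (0.29, adjusted p = 0.466). Postn had 12.33, 12.30 and 12.38 in BLT1-/-KRasLA1 CS lungs and 12.18, 11.99 and 12.46 in BLT1+/+KRasLA1 CS lungs, against 12.32 and 12.55 in the pools, with a difference of -0.16 (adjusted p = 0.486) and 4 of 6 lungs below their own pool.

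**Figure D3:**
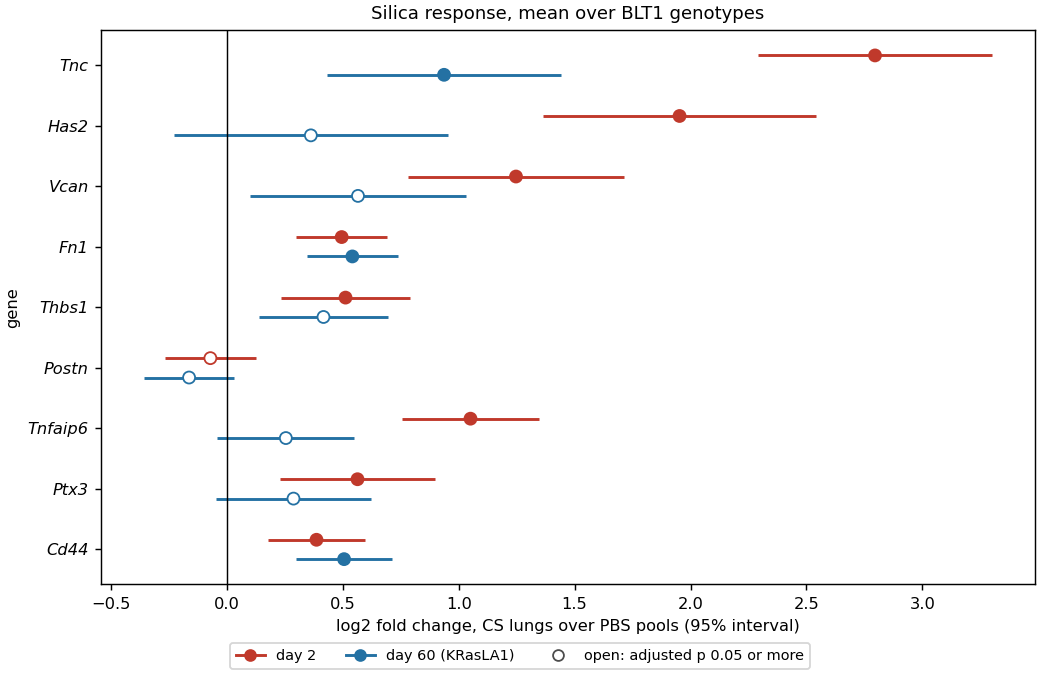
Log2 fold change of CS lungs over PBS pools (horizontal axis), averaged over the BLT1 genotypes, with 95% intervals, for day 2 (red) and day 60 with KRasLA1 (blue). Filled points have an adjusted p under 0.05. Tnc is at 0.94 at day 60, against 2.80 at day 2, while Fn1 is at 0.54 at day 60, against 0.49 at day 2.

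The difference of the responses was itself tested, day 60 minus day 2. It was lower at day 60 for 3 of 9 genes, in a comparison in which 2.35% of all genes differed and 0.657% were lower. The response of Tnc was lower by a log2 difference of -1.86 ± 0.33 (adjusted p = 0.00953), that of Has2 by -1.59 ± 0.39 (adjusted p = 0.0499) and that of Tnfaip6 by -0.80 ± 0.19 (adjusted p = 0.0494). Tnc kept the call in all 22 refits, which changed the normalization, the error model, the genes tested or left out 1 CS lung. Has2 and Tnfaip6 each kept it in 7 of 22, with adjusted p reaching 0.135 and 0.127. None of these refits left out a PBS pool, although the difference rests on the unreplicated pools of both days. Without the BLT1+/+KRasLA1 lung with high Eif2s3y, Has2 was at -1.61 (adjusted p = 0.0685) and Tnfaip6 at -0.79 (adjusted p = 0.0778). The call of Has2 ended without any 1 of 9 of the 12 CS lungs, which are all except BLT1-/- day 2 replicates 1 and 3 and BLT1+/+ day 2 replicate 1. That of Tnfaip6 ended without any 1 of 11 of the 12, the exception being BLT1+/+ day 2 replicate 1. For Vcan the difference was -0.68 ± 0.31 (adjusted p = 0.330), for Fn1 0.05 ± 0.13 (adjusted p = 0.956) and for Cd44 0.12 ± 0.14 (adjusted p = 0.835). The 95% interval for Fn1 was -0.23 to 0.32 and that for Cd44 -0.18 to 0.41.

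The PBS pools were also set against each other, day 60 against day 2, and 0 of 9 members passed the limma test (0.396% of all genes called). At an unadjusted p under 0.05, 5 of the 9 were lower in day 60 pools, where 2127 of all 19938 genes differed in either direction. Vcan averaged 8.35 in the day 60 pools and 9.57 in the day 2 pools, a difference of -1.22 ± 0.26 (adjusted p = 0.0731). Thbs1 averaged 11.48 in day 60 pools and 12.18 in day 2 pools (-0.71, adjusted p = 0.0804), and Tnc, Fn1 and Postn differed by -0.63, -0.44 and -0.27. Neutrophil markers differed in the same direction: their mean level was 8.29 and 8.78 in the day 60 pools of BLT1-/-KRasLA1 and BLT1+/+KRasLA1, against 11.30 and 10.62 in the day 2 pools of BLT1-/- and BLT1+/+, and 6 of 8 markers were called lower, with a median of -2.46. Neutrophil markers were not alone in this. The mean of the fibroblast markers was 10.93 and 11.22 in the same day 60 pools, against 11.39 and 11.38 in the day 2 pools. That of the T and B cell markers was 9.30 and 9.29, against 10.01 and 10.03. Lung epithelial markers went the other way, at 13.05 and 13.07 against 12.96 and 13.02. The part of these cell types in the member values of the pools was not tested.

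By mean level over the 8 groups, the day 2 CS groups of both genotypes came first for 7 of the 9 genes (Tnc, Has2, Vcan, Fn1, Thbs1, Tnfaip6 and Ptx3). The BLT1-/- CS group was above the BLT1+/+ CS group for 6 of these and below it for Tnfaip6, and in each case their lungs overlapped. For Tnc, Has2 and Ptx3 the day 60 CS groups came next, followed by all 4 PBS pools. Vcan and Thbs1 had a different order, in which the day 2 pools lay above both day 60 CS groups. Fn1 in day 60 CS lungs (12.75 on average in each genotype) overlapped the day 2 pools. Postn was highest in the BLT1+/+ PBS day 2 pool, and its day 2 groups all lay above its day 60 groups by mean level. How many of all genes have each of these orders was not counted.

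Within each genotype the responses rest on 3 lungs against 1 pool. In BLT1-/- lungs at day 2, 6 of 9 genes rose, where 6.6% of all genes changed: Tnc by 3.04, Has2 by 2.06, Vcan by 1.32, Tnfaip6 by 0.94, Thbs1 by 0.75 and Fn1 by 0.54. Without BLT1-/- replicate 2 the count was 3, since Vcan (1.23, adjusted p = 0.0547), Fn1 (0.51, adjusted p = 0.0637) and Thbs1 (0.69, adjusted p = 0.0655) lost the call. Without replicate 3, Vcan (1.30, adjusted p = 0.0507) and Thbs1 (0.65, adjusted p = 0.0680) lost it. In BLT1+/+ lungs at day 2, 3 of 9 rose, where 1.16% of all genes changed: Tnc by 2.55, Has2 by 1.84 and Tnfaip6 by 1.16. Only Tnc stayed called without BLT1+/+ replicate 2, with Has2 at 1.71 (adjusted p = 0.113) and Tnfaip6 at 1.11 (adjusted p = 0.0510). Without replicate 3, Has2 lost the call (1.64, adjusted p = 0.120). Without replicate 1, the low lung, 5 were called, adding Vcan (1.42, adjusted p = 0.0113) and Cd44 (0.51, adjusted p = 0.0329). Same-numbered lungs of the genotypes deviated together at day 2. With the replicate number as a block at day 2, the BLT1+/+ count was 5, adding Vcan (adjusted p = 0.0254) and Cd44 (adjusted p = 0.0293). The pools lie outside the block, so its errors for CS against PBS are too small. At day 60, 1 of 9 rose in BLT1-/-KRasLA1 lungs, Fn1 by 0.70 (adjusted p = 0.0228; 1.17% of all genes changed), a call that ended without replicate 3 (0.70, adjusted p = 0.0701). In BLT1+/+KRasLA1 lungs 4 of 9 had an unadjusted p under 0.05, as had 1935 of all 19938 genes. Of the 9, 0 passed the limma test (0.762% of all genes changed). Without BLT1+/+KRasLA1 replicate 3 there were 2, Fn1 at 0.48 (adjusted p = 0.0434) and Postn at -0.47 (adjusted p = 0.0180).

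Whether BLT1 changed these levels after silica was tested directly between the CS lungs of the genotypes, a comparison that uses no pool. By limma, 0 of 9 genes differed at day 2 (0.0201% of all genes called) and 0 of 9 at day 60 (0.0401% of all genes called). At an unadjusted p under 0.05 there were 1 and 0 members, beside 1735 and 810 of all 19938 genes. BLT1-/- and BLT1+/+ CS lungs overlapped for all 9 genes at both days, while BLT1-/- lungs lay wholly above for 6.31% and wholly below for 6.13% of all genes at day 2, and for 4.58% and 5.92% at day 60.

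At day 2 the differences, BLT1-/- minus BLT1+/+, ran from -0.35 for Tnfaip6 to 0.40 for Tnc. Without pairing, Tnfaip6 averaged 8.28 ± 0.19 in BLT1-/- CS lungs and 8.63 ± 0.28 in BLT1+/+ CS lungs (SD, n = 3 each), with an interval of -0.64 to -0.05 before adjustment for multiple tests and an adjusted p of 0.471. Tnc averaged 11.94 ± 0.35 in BLT1-/- CS lungs and 11.54 ± 0.56 in BLT1+/+ CS lungs, with an interval of -0.10 to 0.91 (adjusted p = 0.698). Has2 differed by 0.34, with an interval of -0.25 to 0.93. Differences of that size in either gene were not detectable with 3 lungs a group. The labels do not say what the replicate numbers mark. Because same-numbered day 2 lungs deviated together, the differences were also taken within the 3 same-numbered pairs. BLT1-/- was the higher in all 3 pairs for 5 genes (Tnc, Has2, Vcan, Thbs1 and Ptx3), which held for 19.1% of all genes, and the lower in all 3 for Tnfaip6 and Cd44, which held for 15.1% of all genes. For Tnc the pair differences were 0.66, 0.27 and 0.28, for Has2 0.40, 0.07 and 0.54, and for Tnfaip6 -0.15, -0.23 and -0.67. Vcan and Cd44 were each close to 0 in 1 pair, Vcan at 0.003 in replicate 3 and Cd44 at -0.0006 in replicate 1. With the replicate number as a block at day 2, 0 of 9 genes were called by limma, and the adjusted p was 0.231 for Tnc, 0.184 for Has2 and 0.245 for Tnfaip6. At day 60 the differences ran from -0.12 for Cd44 to 0.13 for Postn, and all 95% intervals lay between -0.62 and 0.56. That for Fn1 was -0.20 to 0.20.

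**Figure D4:**
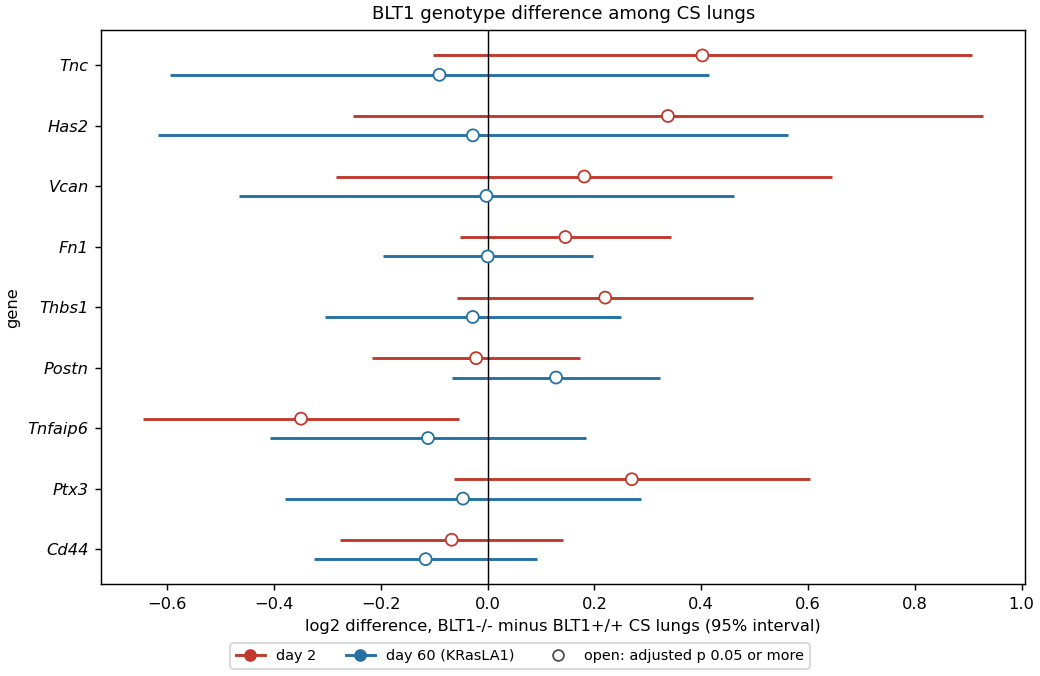
Log2 difference between BLT1-/- and BLT1+/+ CS lungs (horizontal axis) with 95% intervals, for day 2 (red) and day 60 with KRasLA1 (blue). Every point is open because no adjusted p was under 0.05. The points run from -0.35 to 0.40 at day 2 and from -0.12 to 0.13 at day 60.

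The silica response itself also did not differ detectably between the genotypes. In the BLT1 by silica interaction, 0 of 9 genes were called by limma at either day (0% of all genes), and 0 had an unadjusted p under 0.05, compared with 896 genes at day 2 and 396 at day 60. The interaction of Tnc was 0.48 at day 2 with an interval of -0.53 to 1.49, and that of Vcan was 0.62 at day 60 with an interval of -0.31 to 1.54. Each interaction rests on both unreplicated pools of its day.

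Genes of related lists were counted in the same fits, in which 8.03% of all genes were higher and 4.37% lower at day 2, and 3.35% higher and 0.677% lower at day 60. Of 9 genes for the other hyaluronan synthases and for the sugar precursors, 5 rose and 0 fell at day 2, and 9 of 9 had a positive response, with a median of 0.32. Uap1, Pgm3 and Gnpnat1, enzymes on the route to UDP-N-acetylglucosamine, rose by 0.32 (adjusted p = 0.00631), 0.35 (adjusted p = 0.0122) and 0.36 (adjusted p = 0.0306). Ugdh, which makes UDP-glucuronic acid, rose by 0.26 (adjusted p = 0.0114). At day 60 the median was 0.00 and 1 of the 9 rose, Has3, another hyaluronan synthase, by 0.64 (adjusted p = 0.00610).

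Of 7 measured genes of hyaluronan breakdown, 1 rose at day 2, Cemip, which encodes a hyaluronan-binding protein needed for its depolymerization, by 0.36 (adjusted p = 0.0230; 5 of 6 lungs above their pool). Over the refits, those without 1 pool included, the response of Cemip ran from 0.03 to 0.69. At day 60, 2 rose, Gusb by 0.56 (adjusted p = 0.00722) and Hexa by 0.41 (adjusted p = 0.0145), both lysosomal enzymes with many substrates. The remaining 2 of the 9 listed genes were not analysed here. Among 19 other hyaluronan-binding genes, 2 rose and 2 fell at day 2, with a median of -0.02. In both of these lists the day 2 counts lie near the shares over all genes. Hmmr rose by 1.82 (adjusted p = 0.00285) and Itih4 by 0.90 (adjusted p = 0.000915), while Bcan fell by 0.46 and Itih5 fell by 0.36. Hmmr is also a mitotic spindle gene, and ITIH4 is an acute phase protein. At day 60, 2 rose and 1 fell: Itih4 by 1.26 (adjusted p = 0.000163), Itih1 by 0.48, and Itih2, which fell by 0.47.

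Of 6 proteases that can cut versican, 3 rose and 0 fell at day 2, and the other 3 had negative responses that did not pass the test, down to -0.26 for Adamts5 (adjusted p = 0.177). Adamts4 rose by 1.44 (adjusted p = 0.000484), Adamts9 by 0.74 (adjusted p = 0.00256) and Adamts15 by 0.47 (adjusted p = 0.0141). At day 60, 0 of 6 were called by limma, with Adamts15 at 0.20 (adjusted p = 0.485) and Adamts5 at -0.16 (adjusted p = 0.621) having the smallest p. Of the 6, 0 had an unadjusted p under 0.05, beside 2804 of all 19938 genes. The response of Adamts4 was lower at day 60 than at day 2 by a log2 difference of -1.28 (adjusted p = 0.0220).

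Of 20 measured matrix proteins related to the members, 4 rose and 2 fell at day 2, with a median of 0.03. Fgg, the fibrinogen gamma chain, rose by 1.83 (adjusted p = 0.00507), Ccn4 by 0.88 (adjusted p = 0.00394) and Tgfbi, a relative of periostin, by 0.49 (adjusted p = 0.00802). Thbs3, a relative of Thbs1, fell by 0.61 (adjusted p = 0.00292). At day 60, Tgfbi rose by 0.44 and Emilin2 by 0.61, and 0 of 20 fell. Of 14 matrix receptors, 5 rose and 3 fell at day 2. Itga5, the fibronectin receptor subunit, rose by 0.70 (adjusted p = 0.00123) and Itgb8 by 0.53 (adjusted p = 0.00869). Itga4, an integrin subunit of lymphocytes and other leukocytes that also binds fibronectin, fell by 0.85 (adjusted p = 0.000698), and Cd36, a thrombospondin receptor, fell by 0.22 (adjusted p = 0.00925). At day 60, 0 of 14 rose and 1 fell, Cd36, which fell by 0.18. By limma, 0 genes of these 6 lists were called in the difference between BLT1-/- and BLT1+/+ CS lungs at either day. At an unadjusted p under 0.05 there were 11 at day 2 and 7 at day 60, beside 1735 and 810 of all 19938 genes. The calls against PBS rest on both pools here too. Of 27 genes of the lists called at day 2, 3 stayed called when the BLT1-/- pool was left out and 6 when that of BLT1+/+ was, and of 9 called at day 60, 1 stayed called without either pool alone. Without the BLT1+/+KRasLA1 lung with high Eif2s3y 5 of these 9 stayed called, and the calls of Itih1 (0.44, adjusted p = 0.0837), Tgfbi (0.43, adjusted p = 0.0568), Emilin2 (0.58, adjusted p = 0.0776) and Cd36 (-0.17, adjusted p = 0.0866) ended. Without BLT1-/-KRasLA1 replicate 2, 5 of the 9 also stayed called, and without BLT1+/+KRasLA1 replicate 1, 6 did. In all these refits each gene kept its direction.

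**Figure D5:**
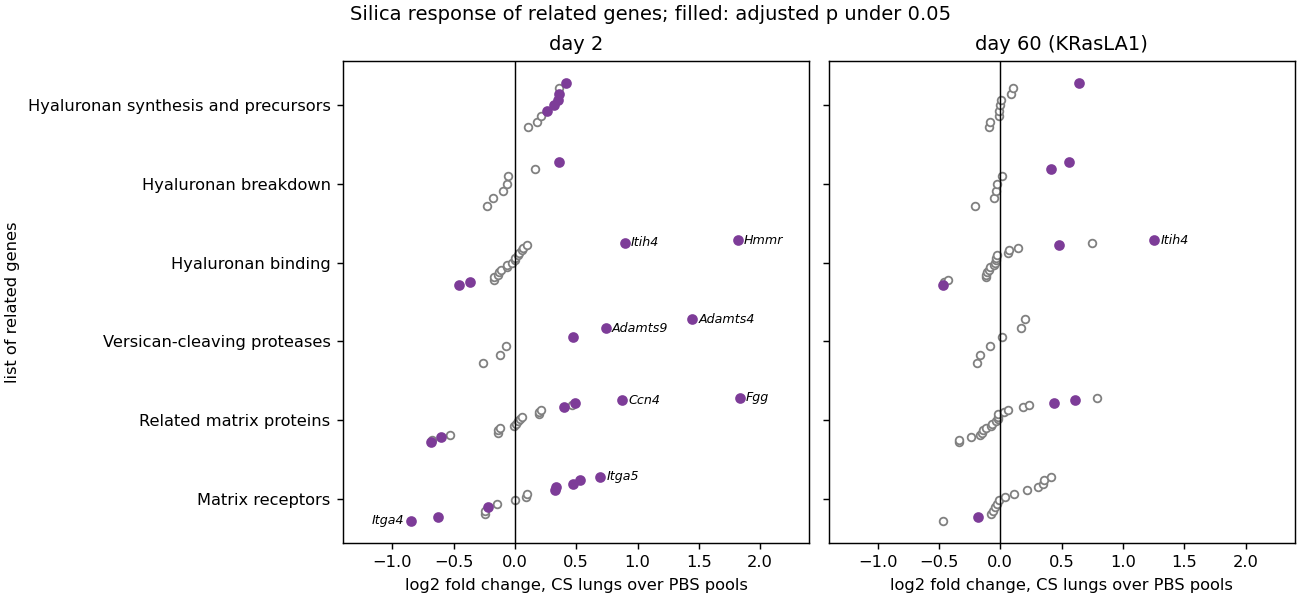
Log2 fold change of CS lungs over PBS pools (horizontal axis), averaged over the BLT1 genotypes, for the genes of 6 related lists (vertical axis) at day 2 and at day 60 with KRasLA1. Filled points have an adjusted p under 0.05. At day 2, 5 of 9 synthesis genes and 3 of 6 versican-cleaving proteases are filled and lie above 0.

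Markers of cell types that make or carry these products were read beside them. Of 8 fibroblast markers, 2 rose and 2 fell at day 2: Col1a1 and Col1a2 rose by 0.32 and 0.31, and Dcn and Npnt fell by 0.28 and 0.32. Their mean level ran from 11.32 to 11.40 in BLT1-/- CS lungs and from 11.22 to 11.35 in BLT1+/+ CS lungs, against 11.39 and 11.38 in the PBS pools. In that mean, which covers markers that moved both ways, BLT1-/- replicate 2 was above both pools and the other 5 CS lungs were below both. Of 5 mesothelial markers, 1 rose, Msln by 0.80 (adjusted p = 0.00157), and 1 fell, Upk1b, which fell by 0.62 (adjusted p = 0.0108). The other 3 had negative responses that did not pass the test, and the median of the list was -0.50. Of 8 neutrophil markers, 0 were called at day 2 by limma and 1 had an unadjusted p under 0.05, beside 4949 of all 19938 genes. In the mean level of these markers the day 2 CS lungs ranged from 10.42 to 11.36, and the pools stood at 11.30 and 10.62.

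Of 8 monocyte and macrophage markers, 2 rose at day 2, Marco by 0.95 (adjusted p = 0.00443) and Cd68 by 0.63 (adjusted p = 0.00925), and 1 fell, Ccr2, which fell by 0.38. Their mean level was 10.72 to 10.74 in BLT1-/- CS lungs and 10.84 to 11.00 in BLT1+/+ CS lungs, against 10.60 and 10.64 in the pools, so all 6 CS lungs lay above both pools, as for 8 of the members. Called markers of some other lists were lower. All 4 measured T and B cell markers fell, with a median of -1.23, as did 3 of 6 heart muscle markers and 1 of 4 platelet markers, Ppbp, which fell by 1.14. The part of these cell types in the member values was not tested. At day 60, 4 of 8 monocyte and macrophage markers rose, among them Cd68 by 1.04 (adjusted p = 0.000827), and 3 of 8 neutrophil markers rose. The mean monocyte and macrophage level was 11.02 to 11.19 in BLT1-/-KRasLA1 CS lungs and 10.94 to 11.23 in BLT1+/+KRasLA1 CS lungs, against 10.49 and 10.53 in the pools. The other called markers at day 60 were Cd3g, Cd3e and Col1a2, which rose by 1.03, 0.56 and 0.26, and Dcn (-0.29), Acta2 (-0.34), Tagln (-0.55) and Cnn1 (-0.89), which fell. Without the BLT1+/+KRasLA1 lung with high Eif2s3y the calls of Cd3e and Col1a2 ended. Markers of several cell types thus rose along with Cd44 and Fn1 at day 60, and their part in the response of these 2 members was not tested. Marker calls rest on the pools as well: of 18 at day 2, 0 were kept when the BLT1-/- pool was left out and 3 when that of BLT1+/+ was. Of 14 at day 60, 0 were kept when the BLT1-/-KRasLA1 pool was left out and 2 when that of BLT1+/+KRasLA1 was, with 9 kept without BLT1-/-KRasLA1 CS replicate 2 and 8 without replicate 3.

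For each member the 3 named genes with the most similar profile over the 16 arrays were listed by Pearson's r. The r values describe these arrays only, since the points share 8 groups and the day 2 CS lungs stand at one end for most of the genes. Tnc was most like Slc39a14, a zinc and iron importer (r = 0.985), which rose by 1.53 at day 2, Nars (r = 0.981) and Bdkrb1, the inducible bradykinin receptor (r = 0.979), which rose by 1.12. Has2 was most like Ranbp1 (r = 0.986), Pcna, the sliding clamp of DNA replication (r = 0.979), and Tyms, thymidylate synthase (r = 0.979), which rose by 0.54, 0.55 and 1.16 at day 2. Ptx3 lay close to Hmgb2 (r = 0.958), Cenpi (r = 0.935) and Dbf4 (r = 0.935).

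Fn1 had another set of neighbours, Retnla (r = 0.960), Serpina3n (r = 0.945) and the collagen gene Col3a1 (r = 0.939), and all 3 rose at both days, Retnla by 0.71 at day 2 and by 1.17 at day 60. The nearest genes to Cd44, Malt1 (r = 0.965), Slc16a6 (r = 0.960) and Sh2b2 (r = 0.954), likewise rose at both days, Malt1 by 0.86 at day 2 and by 1.00 at day 60. Thbs1 was most like the matrix metalloproteinase gene Mmp3 (r = 0.959), which rose by 0.70 at day 2, Vcan was most like Mast2 (r = 0.980) and Tnfaip6 most like Pigu (r = 0.973). Postn followed Tnik (r = 0.970), Prkg1 (r = 0.960) and Akap12 (r = 0.945), none of which was called at either day.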

How the data were processed

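Whole-lung RNA of 16 samples was measured on 16 mouse gene arrays. The deposited values are log2 expression levels. The submitters' processing notes name RMA and Partek 6.6 for the authors' normalization, and the values were used without further normalization. In the platform annotation 21789 of 35556 probe sets had exactly 1 gene symbol, 12146 had none and 1621 had several. A gene was read from its probe set with the highest mean, which left 19938 genes. Groups came from the labels. They call the CS samples biological replicates but identify no animals, so the p-values reflect just the spread among these samples.

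Group means were fitted with limma 3.58.1 in R 4.3.3 (12 contrasts, mean-variance trend, 8 residual degrees of freedom), with Benjamini-Hochberg adjustment over all 19938 genes. A PBS pool has no replicate, and its spread was taken to equal that of single CS lungs. Intervals are 95% and unadjusted, and the scripts were tested on simulated data. Array number and signal limit the precision. No 2 arrays were copies. At day 2 the deviations of same-numbered lungs of the genotypes correlated (r = 0.43, 0.20 and 0.34). The numbers were therefore also read as pairs at day 2, although the labels do not say what they mark. At day 60 the correlations were 0.09, 0.01 and 0.06.

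Members and gene lists were chosen with earlier results of these data known. The text names all members, up to 4 called genes per related list and mean response with the smallest p (up to 2 where none was called), and the 3 genes most like each member by r. Marker genes are examples from their lists. Alternatives covered normalization, error model, filtering, probe sets, blocks and single samples left out.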

Additional observations from a re-analysis of the deposited data

Results flagged for a closer look

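For 3 genes the silica response itself differed between the days in limma's test of the difference, day 60 with KRasLA1 minus day 2. The difference was -1.86 for Tnc, -1.59 for Has2 and -0.80 for Tnfaip6, on the log2 scale. In each case the mean response was positive at both days and smaller at day 60. The calls of Has2 and Tnfaip6 ended under most alternatives, and day and KRasLA1 cannot be told apart. No alternative run for this difference left out a PBS pool. The high Eif2s3y of both day 60 pools also goes with day among the pools.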

How the results depend on the processing

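Responses called for single members kept their sign in all 421 refits (24 values). Many of these refits could not turn a sign, of called or uncalled values. Changes of the error model, the genes tested or the block leave the estimate as it is. Of 1298 refits of 84 uncalled values, 33 were called and 31 had the other sign. Counts of called members that moved by over 1.5 times are given here, and the cause was not tested. For the day difference (3), the count was 1 without the mean-variance trend, 1 after quantile normalization, 1 after cyclic loess, 1 with all probe sets tested, and 1 to 3 without single lungs. The mean day 2 count (8) was 5 on arrays of that day alone and 1 to 8 without single samples, and the mean day 60 count (3) was 0 to 3. In BLT1-/- at day 2 (6) it was 3 with all probe sets, 3 on that day alone and 3 to 6 without single lungs. In BLT1+/+ at day 2 (3) these were 1, 1 and 1 to 5, but 6 with the replicate block over both days and 5 with a day 2 replicate block, chosen after seeing the data. In BLT1-/-KRasLA1 (1) the count was 3 with array weights, 0 with all probe sets, 4 with the replicate block, 0 against the other genotype's pool and 0 to 1 without single lungs. In BLT1+/+KRasLA1 (0) it was 2 with array weights, 2 with the replicate block, 2 against the other pool and 0 to 2 without single lungs. For the PBS pools (0), array weights called 3 (Vcan, Fn1 and Thbs1). BLT1 differences and interactions stayed at 0 called under every alternative run, the replicate block included.

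Signs turned for uncalled values. With array weights the day 60 BLT1 difference was -0.11 for Fn1 and 0.024 for Ptx3, and the day 60 interaction of Ptx3 was 0.012. It was -0.018 for Tnfaip6 with quantile normalization, and the day 60 BLT1 difference of Vcan was 0.020 with cyclic loess. Postn in BLT1-/-KRasLA1 was -0.22 against the other pool. Without single samples, ranges crossed 0 as follows. The day 60 BLT1 difference ran from -0.064 to 0.015 (Has2), -0.15 to 0.18 (Vcan), -0.10 to 0.10 (Fn1), -0.080 to 0.044 (Thbs1) and -0.10 to 0.044 (Ptx3). That of day 2 ran from -0.067 to 0.32 (Vcan), -0.051 to 0.023 (Postn) and -0.18 to 0.011 (Cd44). The day 60 interaction ran from -0.049 to 0.092 (Tnfaip6), -0.12 to 0.033 (Ptx3) and -0.089 to 0.015 (Cd44), and that of day 2 from -0.11 to 0.53 (Has2), -0.095 to 0.29 (Vcan) and -0.14 to 0.043 (Cd44). Postn ran from -0.0063 to 0.036 in BLT1-/-KRasLA1 and from -0.34 to 0.017 in the mean day 60 response, and the day difference of Fn1 from -0.0045 to 0.097.

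Called genes of the related lists kept their sign in all refits and the call in 417 of 513 at day 2 and 118 of 162 at day 60. For these genes too, many of the refits could not turn a sign. Single pools and 3 lungs a group limit the precision.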
